A study of Mus musculus with 2 samples.

Results

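Müller glia (MG) are the main glia of the retina, and 8 genes that handle lipids and cholesterol in glia were followed through the cell types of the mature mouse retina. They were Apoe and Clu, which encode lipoprotein particle proteins, the transporter genes Abca1 and Abca8a, the receptor gene Lrp1, the lipid synthesis genes Scd2 and Hmgcs1, and the transcription factor gene Srebf2. The genes were listed by name, with no measured value in the rule, and are 8 of the 25778 genes in the count table. One retinal library came from a Ptbp1-Ctrl mouse and one from a Ptbp1-KO mouse, both at P30 (30 days of age), and single cells were sequenced in droplets with a 3' RNA kit. The Ptbp1-Ctrl mouse carried the Chx10-Cre transgene, and the Ptbp1-KO mouse carried Chx10-Cre with both Ptbp1 alleles floxed (Chx10-Cre;Ptbp1lox/lox). Both animals thus carried Chx10-Cre, whose promoter is active in progenitors of the retina, and the deletion therefore concerns neurons as well as MG. There was 1 library per genotype, so a difference between genotypes compares 2 libraries, has no replicate check and carries no test.

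Neurons of the central nervous system take up much of their cholesterol and other lipids from glia. Glia load sterols and phospholipids onto apolipoprotein E particles through ABC transporters, and neurons internalise such particles through receptors of the LDL receptor family, of which LRP1 is one. When sterols in the endoplasmic reticulum run low, SREBP2, the product of Srebf2, is cleaved and turns on the genes of cholesterol synthesis, whereas oxysterols that build up act on the LXR receptors and turn on Abca1 and Apoe. In the retina, MG span the whole depth of the tissue and contact every class of neuron.

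Levels are given as CPM, the unique molecular identifiers (UMIs) of a gene per 1000000 UMIs summed over the cells of 1 library and 1 deposited cell type. Every interval is a 95% interval for counting error and leaves out the spread between animals. The libraries held 16421 and 14522 cells with 32758836 and 35328593 UMIs, and 63 cell barcodes occurred in both. MG numbered 1720 in Ptbp1-Ctrl and 1184 in Ptbp1-KO, with median depths of 3333 and 4178 UMIs. All 6 neuronal types (rods, cones, bipolar cells or BC, amacrine cells or AC, retinal ganglion cells or RGC, and horizontal cells or HC) summed to 26852819 and 30242846 UMIs. Ptbp1 itself stood at 49.8 and 1.18 CPM in MG (Ptbp1-Ctrl and Ptbp1-KO, in this order here and below), that is 294 and 6 UMIs. The methods describe female mice, but both libraries held few UMIs of Xist (5 and 6) and between 1413 and 7085 of each of the Y-linked genes Ddx3y, Eif2s3y, Kdm5d and Uty. The MG label was borne out by its markers: Glul, the glutamine synthetase of MG, stood at 9602 and 9869 CPM in MG and at 124 and 123 CPM in the summed neurons. Microglia and retinal pigment epithelium also express Apoe, and most of their defining genes were near 0 in MG. The 8 microglia markers summed to 35.0 and 40.7 CPM there, nearly all of it P2ry12 (28.8 and 31.7 CPM) and Cx3cr1 (5.08 and 7.67 CPM), while Tmem119 and C1qb were at 0 UMIs and C1qa, C1qc, Csf1r and Ctss at 0.787 CPM or less. The 5 pigment epithelium markers summed to 14.4 and 21.8 CPM, with Rpe65 at 0.339 and 0.590. Markers of retinal astrocytes, which express Apoe and Clu too, summed to 531 and 603 CPM in MG, of which Aldoc gave 493 and 554, while Pax2 stood at 0.169 and 0.197 and Gfap at 4.40 and 6.88. Endothelial markers summed to 1522 and 1524 CPM, nearly all of it Flt1 (876 and 812) and Kdr (643 and 709), with Cldn5 at 1.52 and 0.787.

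All 8 genes were higher in MG than in the summed neurons in both libraries, but the name glial held to very different degrees. Apoe, Clu, Abca8a, Lrp1 and Scd2 were at least 4-fold higher in MG in both libraries, which made 5 of 8 genes against 11.1% of all features past 20 CPM in Ptbp1-Ctrl and 10.9% in Ptbp1-KO. The interval of the ratio lay above 0 for 8 of 8 genes in each library, against 35.7% and 34.7% of all features. The median log2 ratio of MG over neurons was 2.64 in Ptbp1-Ctrl and 2.66 in Ptbp1-KO, where the median over all features was -0.16 and -0.19. Srebf2, Hmgcs1 and Abca1 were the genes under 4-fold, and for each of them the interval in MG overlapped or lay below that of a neuronal type in at least 1 library. The same held for Scd2, whose MG interval in Ptbp1-Ctrl lay below that of the few HC and overlapped that of RGC.

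**Figure D1:**
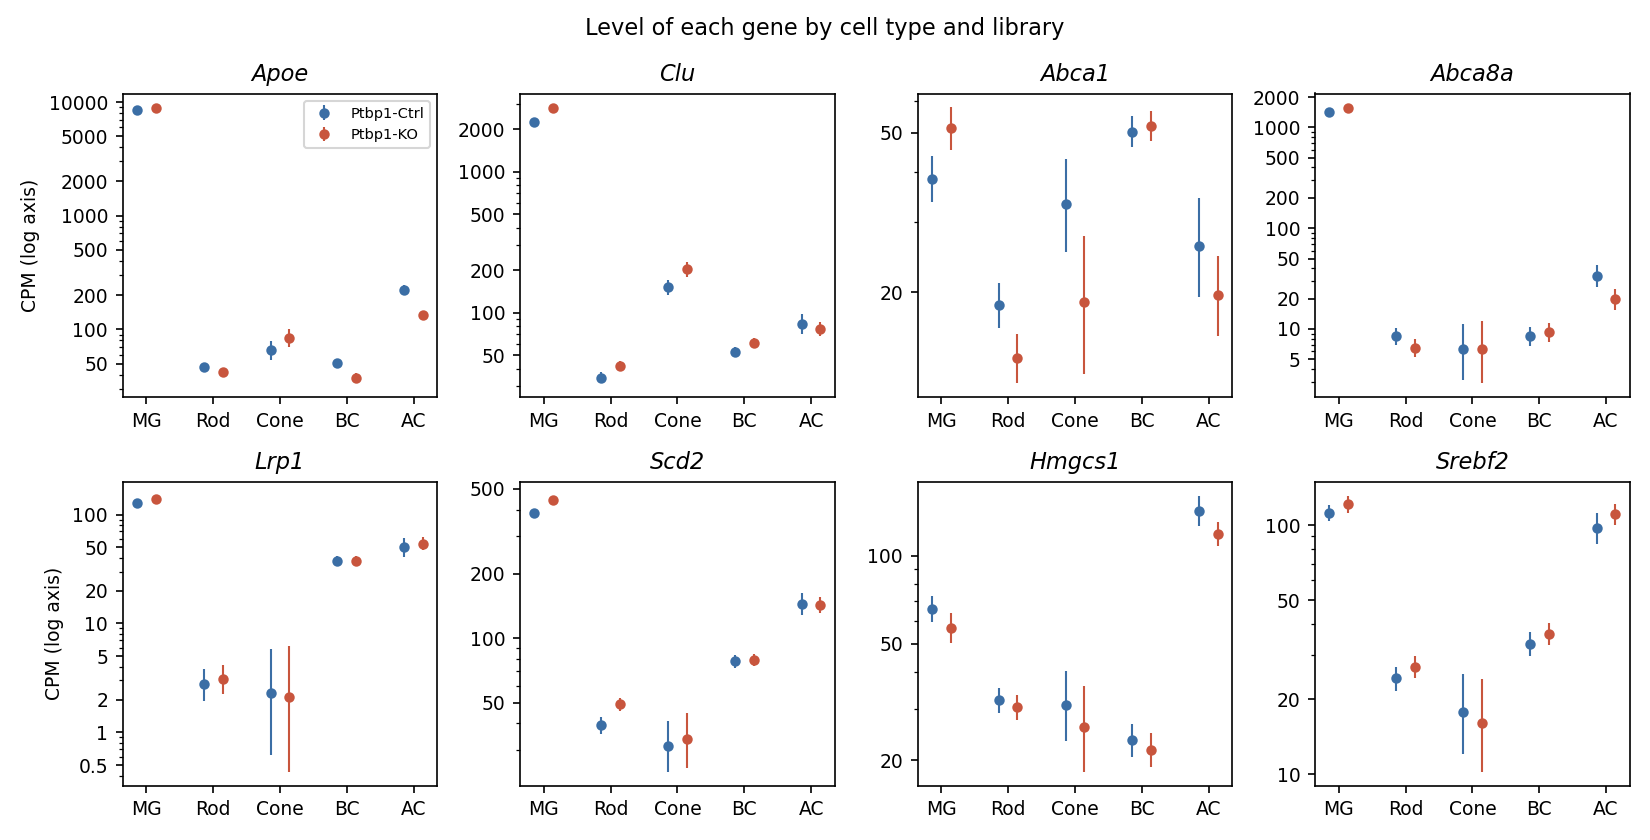
Level of each gene (CPM, log axis, a different range in each panel) in MG, rods, cones, BC and AC of the Ptbp1-Ctrl library (blue) and the Ptbp1-KO library (red). Points are levels of the summed cells and bars are exact Poisson 95% intervals. Apoe, Clu, Abca8a, Lrp1 and Scd2 were highest in MG, Hmgcs1 was highest in AC, and Abca1 stood as high in BC as in MG.

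Apoe encodes apolipoprotein E, the main protein of lipoprotein particles in the nervous system. It lies on chromosome 7 (mm10 chr7:19696109-19699188, minus strand). In MG it reached 8439.5 and 8909 CPM. AC held 221 and 134 CPM, cones 65.3 and 84.2, rods 46.9 and 42.1, and BC 50.3 and 37.1, so that rods and BC were not separated across the libraries. The log2 ratio of MG over neurons was 7.09 (7.02 to 7.16) and 7.36 (7.29 to 7.43), or 136-fold and 165-fold.

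Clu encodes clusterin (apolipoprotein J), a secreted chaperone that also travels on lipoprotein particles. It lies at mm10 chr14:65968483-65981547 on the plus strand. MG held 2249 and 2812 CPM, and the log2 ratio over neurons was 5.33 (5.25 to 5.41) and 5.51 (5.44 to 5.58). Among cones, AC, BC and rods, cones were highest with 152 and 203 CPM, above AC (83.3 and 76.2), BC (52.5 and 60.6) and rods (34.6 and 42.1). No adjacent ranks of these and MG overlapped across the libraries. The few RGC held 380 (302 to 473) and 245 (179 to 328) CPM, from 81 and 45 UMIs. HC held 262 (175 to 376) and 303 (162 to 519) CPM, from 29 and 13 UMIs. Both intervals lay above that of cones in Ptbp1-Ctrl (134 to 171) and overlapped it in Ptbp1-KO (180.0 to 228).

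The transporter genes Abca8a and Abca1 differed in how far MG stood above neurons. Abca8a encodes an ABC transporter of the subfamily A and lies at mm10 chr11:110025634-110095978 on the minus strand. It stood at 1435 and 1548 CPM in MG and at 10.2 and 9.13 CPM in the summed neurons, a log2 ratio of 7.14 (6.96 to 7.31) and 7.41 (7.23 to 7.58). Its neighbour Abca8b, a close copy picked out after its values were seen, was 425 and 451 CPM in MG, and the 2 genes could share reads, so the split between them is uncertain.

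Abca1 encodes the transporter that moves cholesterol and phospholipid out of the cell onto apolipoproteins. It lies at mm10 chr4:53030787-53159895 on the minus strand. MG held 38.4 (33.6 to 43.8) and 51.3 (45.3 to 57.9) CPM, whereas BC held 50.4 (46.0 to 55.0) and 52.1 (47.7 to 56.7). The values of MG and BC overlapped across the libraries, and both lay above those of cones (33.2 and 18.9), AC (26.1 and 19.7) and rods (18.6 and 13.7). Against the summed neurons the log2 ratio was 0.27 (0.056 to 0.49) in Ptbp1-Ctrl and 0.89 (0.68 to 1.09) in Ptbp1-KO.

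Lrp1, the receptor gene, lies at mm10 chr10:127538161-127621148 on the minus strand. It stood at 127 and 138 CPM in MG, 50.6 and 54.2 in AC, and 37.6 and 37.3 in BC. An antisense gene within Lrp1, Gm16217, stood at 0.169 and 0 CPM in MG. Photoreceptors held almost no Lrp1, with 2.76 and 3.10 CPM in rods and 2.29 and 2.10 CPM in cones, the latter from 4 and 3 UMIs. The order MG, AC, BC and photoreceptors was the same in both libraries, and the log2 ratio of MG over neurons was 2.71 (2.55 to 2.88) and 2.70 (2.54 to 2.86).

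Scd2 encodes a stearoyl-CoA desaturase, which makes monounsaturated fatty acids. It lies at mm10 chr19:44293674-44306864 on the plus strand. Without the few RGC and HC, levels ranked in the order MG (385 and 445 CPM), AC (145 and 144), BC (78.2 and 79.2), rods (39.2 and 49.1) and cones (31.5 and 33.7), with no overlap between adjacent types across the libraries. The log2 ratio of MG over neurons was 2.56 (2.47 to 2.66) and 2.62 (2.53 to 2.70). HC, of which there were 17 and 7 cells, held 560 (429 to 717) and 467 (285 to 721) CPM, from 62 and 20 UMIs. The HC interval lay above that of MG in Ptbp1-Ctrl (370 to 401) and overlapped it in Ptbp1-KO (427 to 464). RGC held 333 (260 to 420) and 272 (202 to 359) CPM, from 71 and 50 UMIs, and overlapped MG in Ptbp1-Ctrl only.

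Hmgcs1 encodes the cytosolic HMG-CoA synthase, which acts early in the mevalonate pathway of cholesterol synthesis. It lies at mm10 chr13:119690379-119708260 on the plus strand. It was highest in AC, not in MG: AC held 143 (126 to 160) and 119 (108 to 130) CPM, and MG held 66.0 (59.6 to 72.9) and 56.8 (50.5 to 63.8). The antisense gene Gm48342, which overlaps Hmgcs1, stood at 0.847 and 1.57 CPM in MG. For Hmgcs1 the log2 ratio of AC over MG was 1.11 (0.88 to 1.34) in Ptbp1-Ctrl and 1.07 (0.85 to 1.28) in Ptbp1-KO. By AC cluster, Hmgcs1 stood at 178 and 177 CPM in cluster 6, 148 and 85.8 in cluster 14, and 64.5 (42.9 to 93.2) and 36.2 (25.2 to 50.3) in cluster 15, the last of these not above MG in either library. Rods (32.1 and 30.4 CPM), cones (30.9 and 26.0) and BC (23.5 and 21.8) were lower than MG in both libraries.

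Srebf2 lies at mm10 chr15:82147181-82205379 on the plus strand. MG held 112 (104 to 121) and 121 (112 to 131) CPM, and AC held 97.1 (83.8 to 112) and 110 (100 to 121). The intervals of MG and AC overlapped in each library, although the higher AC value lay below the lower MG value. BC (33.4 and 36.7), rods (24.2 and 26.9) and cones (17.8 and 16.1) followed, and the log2 ratio of MG over neurons was 1.76 (1.61 to 1.91) and 1.56 (1.42 to 1.70).

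Promoter stretches are shown for Srebf2 and Hmgcs1, the regulator and a synthesis gene it is known to act on, because SREBP2 binds sterol regulatory elements. The sequences are from RefSeq on GRCm38.p6 (the mm10 build), read along the plus strand, on which both genes lie. Capitals mark TCACCCCA, a core of the sterol regulatory element, which was searched on both strands of the window from 250 bases before to 50 bases after each start.
Hmgcs1, chr13:119690168-119690267: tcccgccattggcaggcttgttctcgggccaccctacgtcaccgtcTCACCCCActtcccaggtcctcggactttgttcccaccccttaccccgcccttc
Srebf2, chr15:82147061-82147160: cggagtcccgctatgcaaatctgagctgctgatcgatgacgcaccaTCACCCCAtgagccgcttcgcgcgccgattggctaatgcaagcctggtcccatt
The capitals lie 130 to 137 bases before the RefSeq start of Hmgcs1 and 155 to 162 bases before that of Srebf2, starts that differ from the gene bounds given above, which are those of GENCODE. Of the 8 genes, 6 had a promoter in the table, and TCACCCCA was present in those of Apoe, Hmgcs1 and Srebf2, against 1.77% of the 27025 genes with a promoter and 1.56% of the 32851 promoter windows. Among the 19 genes of cholesterol synthesis, 15 had a promoter and only that of Hmgcs1 held these letters. A match is a stretch of letters and was not tested as a binding site.

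Released MG RNA can add to the levels in other cells of a droplet library, so the neuronal level of each gene was expressed as a percent of its MG level and set beside the same percent for the 8 MG markers Glul, Rlbp1, Slc1a3, Sox9, Aqp4, Vim, Dkk3 and Kcnj10. Apoe in the summed neurons was at 0.733% and 0.608% of its MG level, and Abca8a at 0.711% and 0.590%. Both lay below all 8 markers, which ranged from 0.745% to 2.22% in Ptbp1-Ctrl and from 0.777% to 2.60% in Ptbp1-KO. After the median share of the markers (1.25% and 1.16%) was taken off, the neuronal level of Apoe was -43.6 and -49.6 CPM and that of Abca8a -7.72 and -8.89 CPM. Relative to MG, the counts of Apoe and Abca8a in the summed neurons were thus no larger than those of the markers. Some markers stood high in a neuronal type, such as Dkk3 in AC (304 and 282 CPM) and Vim in HC (1029 and 723 CPM). The marker share may therefore hold more than released MG RNA, and the part of each was not tested.

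The other 6 genes exceeded the marker range in at least 1 neuronal type of both libraries. Clu in cones was at 6.75% and 7.21% of its MG level, above the 2.02% and 2.01% of the highest marker there, and it exceeded all 8 markers in rods too. Lrp1 exceeded the markers in BC (29.5% and 27.0%) and AC (39.7% and 39.2%). It also exceeded them in rods (2.17% and 2.25%, where the highest marker was at 1.30% and 1.17%), but lay within their range in cones (1.80% and 1.52%). Scd2, Abca1, Hmgcs1 and Srebf2 exceeded all 8 markers in rods, cones, BC and AC of both libraries, with the lowest value 7.56% for Scd2 in cones of Ptbp1-KO. Hmgcs1 in AC was at 216% and 209% of its MG level.

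**Figure D2:**
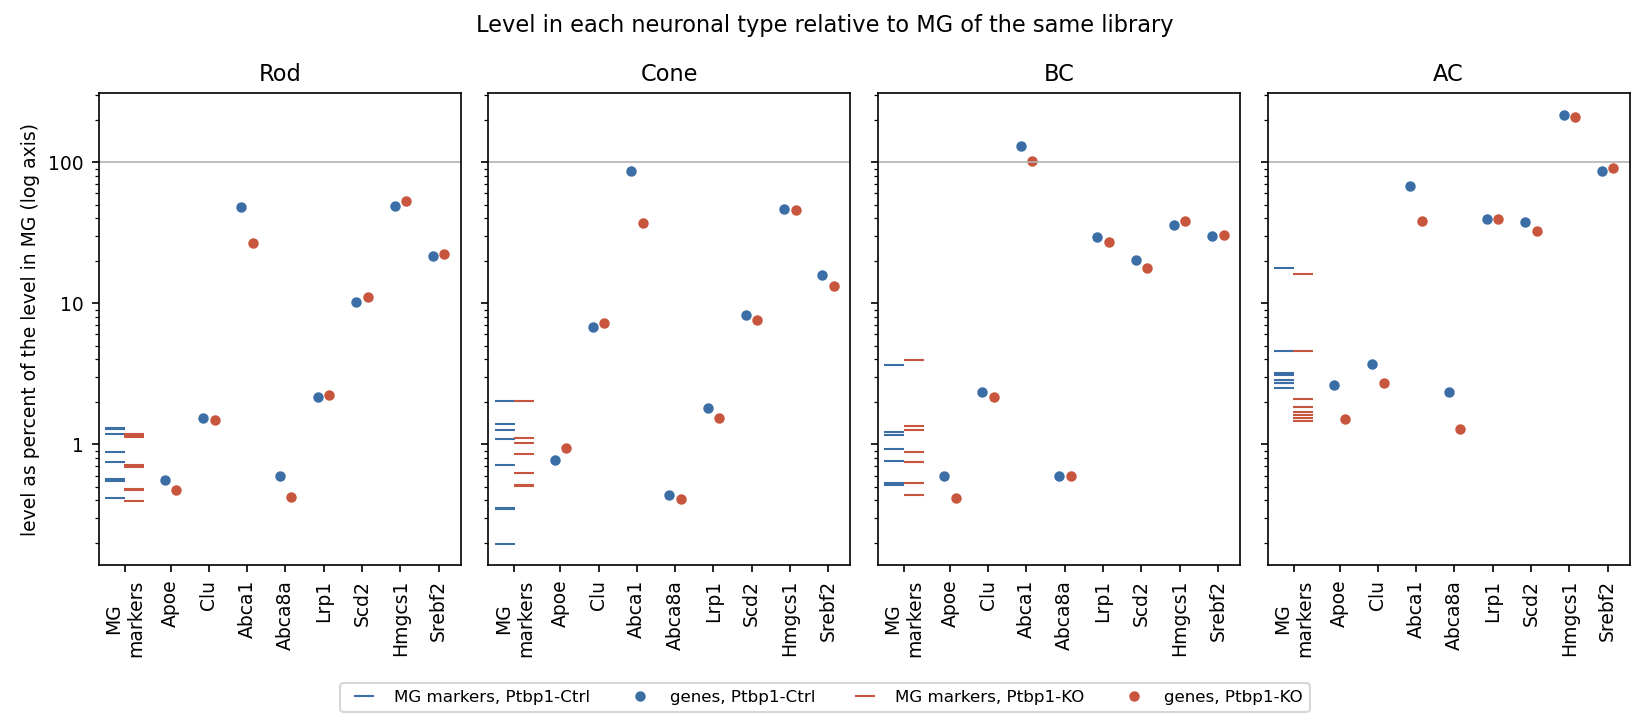
Level in rods, cones, BC and AC as a percent of the level in MG of the same library (log axis) for the 8 MG markers (dashes) and each gene (points), in Ptbp1-Ctrl (blue) and Ptbp1-KO (red). The grey line marks 100%, and 1 marker at 0 in cones of Ptbp1-KO is not drawn. Apoe and Abca8a lie among or below the markers, whereas Hmgcs1 in AC reaches 216% and 209%.

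For the share of cells with a UMI, each cell was thinned to 1000 UMIs, which left out 57 and 11 MG and 4155 and 3126 rods. Apoe was then detected in 99.2% (98.6 to 99.5) of MG in Ptbp1-Ctrl and 98.6% (97.7 to 99.2) in Ptbp1-KO, at a median of 8 UMIs per cell, against 3.85% and 3.60% of rods. Clu was detected in 88.2% and 92.4% of MG and Abca8a in 75.5% and 74.8%. Scd2 reached 32.6% and 34.6%, Lrp1 11.1% and 14.6%, and Srebf2 9.98% and 12.2%, while Hmgcs1 reached 5.77% and 4.18% and Abca1 4.15% and 5.20%. Hmgcs1 was detected in more AC than MG, at 12.3% (9.85 to 15.2) and 10.3% (8.40 to 12.5). Without thinning, the shares in MG were 11.7% and 17.1% for Abca1, 19.1% and 19.7% for Hmgcs1, 98.8% and 99.5% for Clu, and 99.5% and 99.2% for Apoe.

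The deposited clusters showed where within a cell type the genes stood. These clusters were built from the same cells and genes, so their differences are descriptions only. Abca1 in BC came mainly from clusters 5 and 10, which held 102 and 94.3 CPM (cluster 5) and 121 and 106 CPM (cluster 10), and the other 8 BC clusters held between 6.63 and 41.5 CPM. Clusters 5 and 10 were also those of highest Prkca, the protein kinase C gene of rod bipolar cells, at 6644 to 8053 CPM against 65.0 to 535 CPM in the others. Abca1 in these clusters thus stood above its level in MG of either library.

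Within MG, cluster 16 (245 and 136 cells, median 1314 and 1715 UMIs) differed from the main cluster 4 (1386 and 994 cells, median 3475 and 4351 UMIs). Its Glul was 2177 and 2145 CPM, against 10506 and 10652 in cluster 4, and its Rlbp1 was 472 and 310 against 2064 and 2078. Apoe kept its level in cluster 16 (8327 and 9962 CPM, against 8774 and 9160), and Clu (2673 and 3646) and Abca8a (1772 and 2185) were above their cluster 4 values (2323 and 2870, 1473 and 1562). Hmgcs1 in cluster 16 was 29.7 (14.8 to 53.1) and 23.8 (8.75 to 51.9) CPM, against 69.2 and 62.3 in cluster 4, from 11 and 6 UMIs. Cluster 22 (89 and 54 cells) held MG genes together with the BC genes Trpm1 (752 and 862 CPM) and Pcp2 (992 and 1248 CPM), and there Apoe was 5317 and 5202 CPM. Doublets were not called, and leaving clusters 16 and 22 out of MG changed the median ratio of the 8 genes from 2.64 to 2.66 in Ptbp1-Ctrl and from 2.66 to 2.70 in Ptbp1-KO.

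**Figure D3:**
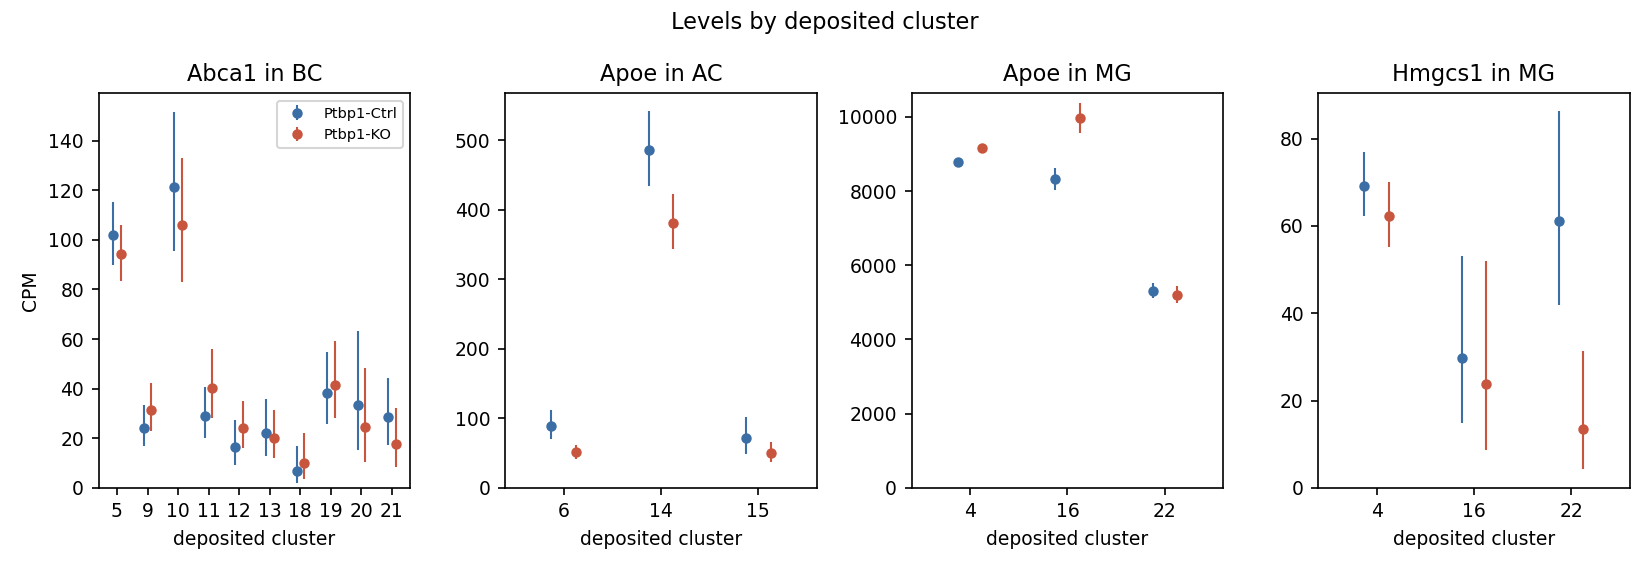
Level (CPM, axes from 0) of Abca1 in the BC clusters, Apoe in the AC clusters, and Apoe and Hmgcs1 in the MG clusters, by deposited cluster number, in Ptbp1-Ctrl (blue) and Ptbp1-KO (red). Bars are exact Poisson 95% intervals. Abca1 is highest in BC clusters 5 and 10, and Apoe in AC is highest in cluster 14, at 486 and 381 CPM.

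Genes with the most similar pattern were sought by Pearson correlation of log2(CPM + 1) over the 10 sums of 5 cell types and 2 libraries, among 10516 genes. The 10 sums come from only 2 libraries, and a gene high in MG alone has many close neighbours: 373 genes exceeded 0.95 with Apoe and 440 with Abca8a. The closest to Apoe were Csrp1, Arhgap6 and Cav1 (0.997 to 0.995), to Clu Col4a5, Sfxn5 and Jun (0.994 to 0.989), and to Abca8a Car14, Sphk1 and Ndrg2 (0.999 to 0.997). Lrp1 was closest to Ddah1, Pknox2 and Parva (0.998 to 0.997), Scd2 to Eva1c, Krt1 and Gm4876 (each 0.995), and Srebf2 to Gap43, Efnb2 and Adk (0.995 to 0.991). For Hmgcs1 the closest was Sqle (0.985), the squalene epoxidase of the same pathway, followed by Ier5l and Cant1 (0.982 and 0.979), and 14 genes exceeded 0.95. Abca1 had none above 0.95, and its closest were Ttyh1, Ctsz and Ddit4l (0.936 to 0.906).

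Between the genotypes, MG kept the levels of these genes within a factor of 1.5. No gene of the 8 passed 1.5-fold in MG, where 3.3% of all features past a mean of 20 CPM did. The interval of the log2 ratio of Ptbp1-KO over Ptbp1-Ctrl lay above 0 for 5 of 8 genes, against 14.4% of all features, and below 0 for none, against 16.5%. The median was 0.12, and it was -0.013 over all features. The MG markers moved little too, with 7 of 8 higher in Ptbp1-KO, a median log2 ratio of 0.037 and a range from -0.24 for Sox9 to 0.20 for Slc1a3. All 7 rod markers were lower in MG of Ptbp1-KO, and their summed level there was 6586 and 5189 CPM. All 5 astrocyte markers (summed 531 and 603 CPM) and all 7 AC markers (559 and 646 CPM) were higher there. The part of RNA of these cell types in the results was not tested.

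Clu, Abca1 and Scd2 were higher in MG of Ptbp1-KO. Clu went from 2249 to 2812 CPM, a log2 ratio of 0.32 (0.29 to 0.36), which was above that of each of the 8 MG markers. Abca1 went from 38.4 to 51.3 CPM, a log2 ratio of 0.42 (0.15 to 0.68), and rested on 227 and 261 UMIs. Scd2 was higher by 0.21 (0.12 to 0.29) on the log2 scale, from 385 to 445 CPM.

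Abca8a was also higher in MG, by 0.11 (0.064 to 0.15), and so was Apoe, by 0.078 (0.060 to 0.097), on the log2 scale, both within the range of the MG markers. The intervals of Lrp1 (0.12, -0.034 to 0.27), Srebf2 (0.11, -0.047 to 0.27) and Hmgcs1 (-0.22, -0.44 to 0.0065) held 0. Hmgcs1 was the only gene of the 8 with a ratio below 0 in MG, at 66.0 and 56.8 CPM. With cells thinned to 1000 UMIs the ratio was -0.51 for Hmgcs1 and 0.38 for Lrp1, beside 0.34 for Clu and 0.37 for Abca1, so the order of the genes by size of difference was not kept. The thinned Hmgcs1 ratio rested on 96 and 49 MG with a UMI. Thinning also leaves out shallow cells and weights the others alike, and these effects were not told apart.

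In photoreceptors and BC some of the genes differed between the libraries beyond counting error, and differences between genes or cell types were not tested. Clu was higher in rods (34.6 and 42.1 CPM), cones (152 and 203 CPM) and BC (52.5 and 60.6 CPM) of Ptbp1-KO, with log2 ratios of 0.28, 0.42 and 0.21 whose intervals lay above 0. The difference was not shared by rod cluster 0 (4614 and 5462 cells), where Clu was 27.7 and 25.6 CPM. In rod clusters 1, 2 and 3 it was 25.1 and 46.9, 36.8 and 48.9, and 47.6 and 76.2 CPM. In rods, 5 of the 8 genes passed a mean of 20 CPM, 0 of them passed 1.5-fold (2.21% of all features did), and Clu and Scd2 (0.32, from 39.2 to 49.1 CPM) had intervals above 0, where 23.1% of all features did. No gene of the 5 had an interval below 0 there, where 17.6% of all features did, and Abca1 (18.6 and 13.7 CPM, -0.44), below the 20 CPM minimum in rods, had one. Abca1 was lower in cones, with 33.2 and 18.9 CPM from 58 and 27 UMIs and a log2 ratio of -0.81 (-1.53 to -0.13), the only one of 5 genes past 1.5-fold there against 6.37% of all features. Clu and Abca1 were thus 1 gene with an interval above 0 and 1 below 0 in cones, where 7.35% and 7.77% of all features were. With cells thinned to 1000 UMIs the sign of this ratio turned, to 0.23, from 13 and 10 cones with a UMI. In BC none of 7 genes passed 1.5-fold (1.09% of all features did), and Apoe was lower, with 50.3 and 37.1 CPM and a log2 ratio of -0.44 (-0.63 to -0.24). Clu and Apoe were the only genes of the 7 whose interval lay above or below 0 in BC, where 14.7% and 14.9% of all features did so, and these counts lie near the background.

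In AC, 2 of 8 genes passed 1.5-fold, against 3.06% of all features, and both were lower in Ptbp1-KO. The interval lay below 0 for 3 genes (8.57% of all features) and above 0 for none (8.68% of all features). Apoe was 221 and 134 CPM, a log2 ratio of -0.73 (-0.92 to -0.54), and Abca8a was 33.7 and 19.7 CPM, a ratio of -0.78 (-1.27 to -0.28). Of the 8 MG markers, 7 were also lower in AC of Ptbp1-KO, among them Glul (261 and 181 CPM) and Rlbp1 (58.8 and 30.6 CPM), while Slc1a3 was 65.9 and 76.5 CPM. Their summed level was 745 and 603 CPM, and the median share of the 8 markers was 2.97% and 1.77% of their MG level. Apoe was at 2.62% and 1.5% of its MG level, below 7 of the 8 markers in each library, and Abca8a was at 2.35% and 1.27%, below all 8. The part of MG RNA in these differences was not tested. AC cluster 14, which held 33.0% and 22.6% of AC, had the highest Apoe (486 and 381 CPM) and Glul (500 and 369 CPM), while Apoe was 89.2 and 51.0 CPM in cluster 6 and 71.4 and 49.6 CPM in cluster 15. Without cluster 14 the log2 ratio of Apoe in AC was -0.72 and that of Abca8a 0.054, a setting added after seeing the data, and Abca8a was at -0.11 without the cells of highest UMI count. Hmgcs1 was also lower in AC, at 143 and 119 CPM and a ratio of -0.26 (-0.48 to -0.041), while Srebf2 was at 97.1 and 110 CPM with an interval that held 0 (0.19, -0.065 to 0.44). By cluster, Hmgcs1 was nearly the same in cluster 6 (178 and 177 CPM) and lower in clusters 14 (148 and 85.8) and 15 (64.5 and 36.2).

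**Figure D4:**
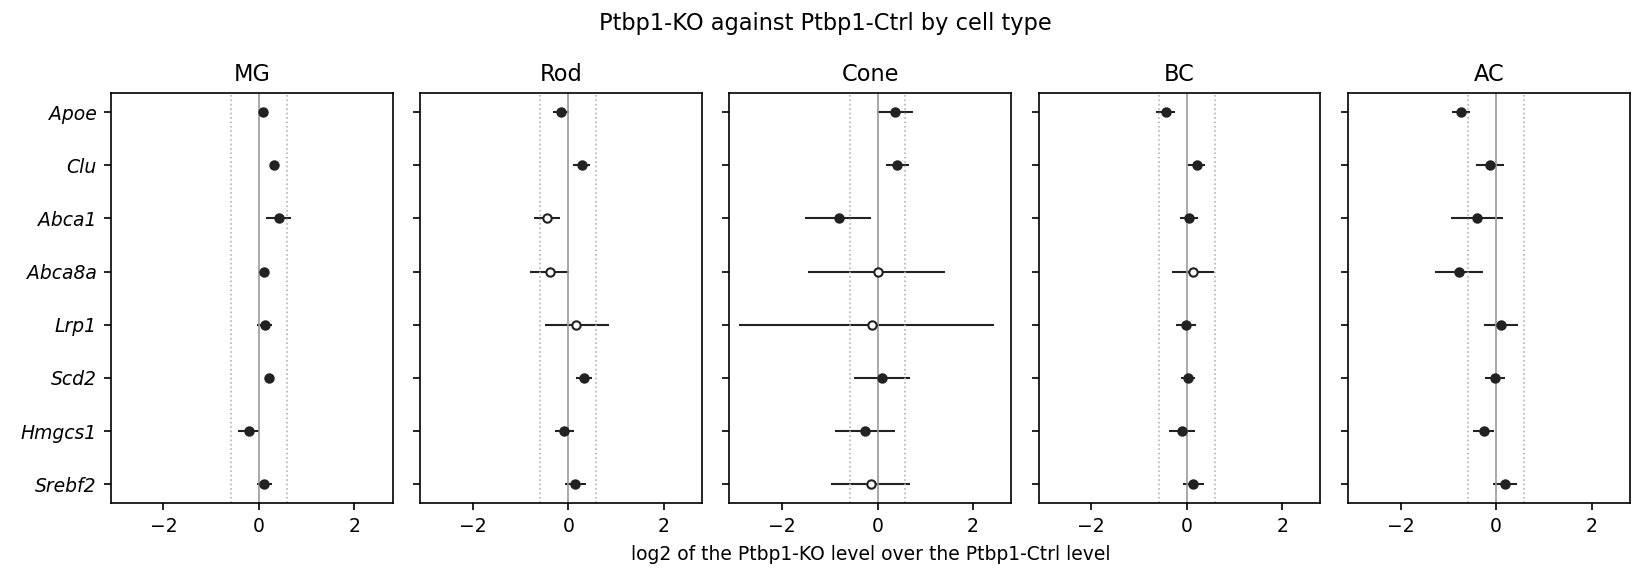
Ratio (log2) of the level in Ptbp1-KO to that in Ptbp1-Ctrl for each gene in MG, rods, cones, BC and AC. Bars are exact conditional binomial 95% intervals, open points have a mean under 20 CPM, the solid line marks 0 and the dotted lines mark 1.5-fold. No gene passes 1.5-fold in MG, while Apoe and Abca8a in AC and Abca1 in cones lie below it.

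The wider lists give the setting of these genes. Of 19 genes of cholesterol synthesis, 12 passed a mean of 20 CPM in MG, 0 passed 1.5-fold between the genotypes, 8 were lower and 4 higher in Ptbp1-KO, and the median log2 ratio was -0.19, or -0.076 with cells thinned to 1000 UMIs. The interval lay below 0 for 2 genes and above 0 for 1, against 16.5% and 14.4% of all features. Those 2 genes were Msmo1, a sterol demethylase (85.3 and 69.6 CPM, -0.29), and Idi1, an isomerase of the mevalonate pathway (62.1 and 47.0 CPM, -0.40), which with Hmgcs1 had the highest levels of the list in MG. The gene above 0 was Nsdhl (16.8 and 24.2 CPM, 0.53), named after its values were seen.

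The other lists of the pathway had 0 genes past 1.5-fold in MG as well, where 3.3% of all features were past it, so counts of this size lie near the background. Of all features in MG, 14.4% had an interval above 0 and 16.5% had one below 0. Among 12 sterol sensing genes, 9 were past the minimum, 0 had an interval above 0 and 1 below, with a median of -0.089, and those of highest level were Srebf2, Insig2 (93.1 and 76.9 CPM) and Srebf1 (69.6 and 77.5 CPM), which encodes the related factor of fatty acid synthesis. The lipoprotein and efflux list was led by Apoe, Clu and Abca8a themselves, with 9 of 13 past the minimum, 5 intervals above 0, 0 below and a median of 0.11. Apoe, Clu, Abca1 and Abca8a were among those 5. Uptake was led by Sorl1, a sorting receptor (214 and 265 CPM, 0.31), Lrp1, and Lrpap1, the chaperone of LRP1 (124 and 133 CPM, 0.10), with 9 of 11 past the minimum, 2 intervals above 0, 3 below and a median of 0.12. Several genes stand in these lists and among the 8, so the lists are not independent of them.

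Most cholesterol synthesis genes past 20 CPM were, like Hmgcs1, higher in AC than in MG, though not all beyond counting error. This comparison was added after the Hmgcs1 values were seen, and the list was not tested. In Ptbp1-Ctrl, 13 of 19 genes passed 20 CPM in AC or MG, and 13 of these, Hmgcs1 included, were higher in AC, where 5491 of all 9100 features past it were. Of the 13, 8 had an interval above 0, against 42.4% of all features. In Ptbp1-KO, 15 passed, 12 were higher in AC (5596 of all 9190 features were), and 11 had an interval above 0, against 46.3%. The median log2 ratio of AC over MG was 0.55 and 0.72, where it was 0.21 and 0.21 over all features. Fdps, which makes farnesyl diphosphate and was picked out after its values were seen, stood at 75.7 and 87.4 CPM in AC and at 30.6 and 26.7 CPM in MG. Msmo1 (91.0 and 85.3 CPM in Ptbp1-Ctrl) was not separated between AC and MG beyond counting error.

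**Figure D5:**
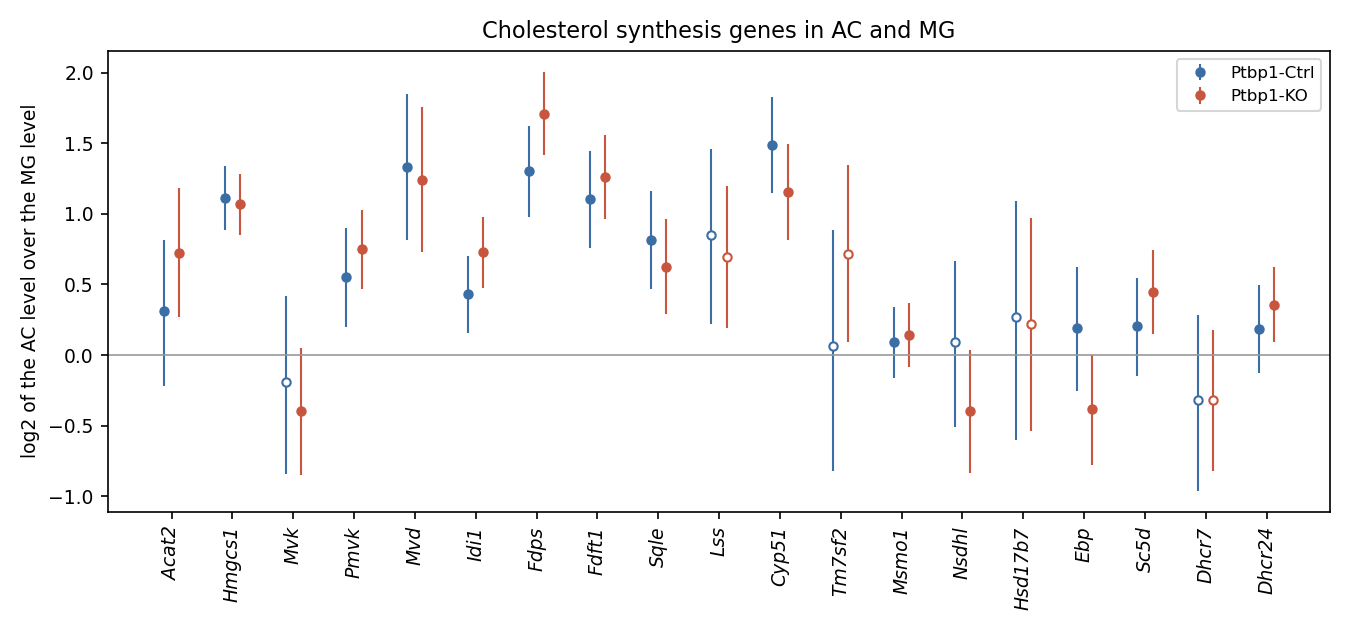
Log2 of the AC level over the MG level for 19 cholesterol synthesis genes, in the order of the pathway as listed, in Ptbp1-Ctrl (blue) and Ptbp1-KO (red). Bars are exact conditional binomial 95% intervals, open points are under 20 CPM in both cell types, and the line marks 0. All 13 genes past 20 CPM in Ptbp1-Ctrl lie above 0, and 12 of 15 in Ptbp1-KO.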

How the data were processed

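Per the labels and methods, the authors made 10x Genomics 3' libraries and, in the submitters' processing notes, used Cell Ranger 7.0.1 on mm10 and Seurat 4. The deposited table holds raw UMI counts, with no normalization, and the deposited cell table gives the sample, cluster and cell type of each cell. The summed counts matched the deposited totals in all 30943 cells. The gene annotation and the counting of introns are not given in the sources used here. A further 4 columns of per-cell values were not used.

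UMIs were summed per library and cell type (SciPy 1.17.1, pandas 2.3.3) and scaled to CPM, so a rise in one gene lowers the share of others, and 3' counts do not rank genes by transcript number. Intervals were exact Poisson, conditional binomial or Clopper-Pearson, at 95%. Features past 20 CPM in either group (MG against neurons, AC against MG) or on average (genotypes) entered the counts. The ratio code was tested on simulated data. Coordinates are from GENCODE M21.

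The genes and lists were chosen with earlier results of these data known. By rule, the genes to be named were the 8, Ptbp1, the markers, the 3 of highest MG level in each list, list members past 1.5-fold in MG, and the 3 nearest patterns per gene. Named besides were the sex-linked genes, the antisense genes that overlap Lrp1 and Hmgcs1, and genes picked out after their values were seen. The last are marked so in the text. Alternatives were another scaling (TMM, edgeR 4.0.16), means over cells, thinned cells, removal of the deepest cells, the main MG cluster, other definitions of neurons, and other minimum levels. An item of the cholesterol synthesis list is not reported here and was left out of its counts.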

Additional observations from a re-analysis of the deposited data

Results flagged for a closer look

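For 5 pairs of a gene and a cell type, the log2 ratio of Ptbp1-KO over Ptbp1-Ctrl was above 0 in MG and below 0 in a neuronal type, each beyond counting error. With 1 library per genotype the difference was not tested. For Apoe, the ratio in MG exceeded that in BC by 0.52 and that in AC by 0.81. For Abca8a it exceeded that in AC by 0.88, but the Abca8a ratio in AC was 0.054 without AC cluster 14. For Abca1 it exceeded that in rods by 0.86 and that in cones by 1.23, where rods held 18.6 and 13.7 CPM and cones 58 and 27 UMIs, and the ratio in cones was 0.23 with cells thinned to 1000 UMIs. Of the 8 markers of MG, 7 were also lower in AC of Ptbp1-KO and 1, Slc1a3, was higher (65.9 and 76.5 CPM), and their part in the Apoe and Abca8a differences was not tested.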

How the results depend on the processing

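With 1 library per genotype, no library could be left out, and animal, dissociation and library cannot be told apart from genotype. No paired analysis was possible because each genotype has 1 library. The count of 5 genes at least 4-fold higher in MG and the count of 0 past 1.5-fold in MG were the same under every alternative run. The median log2 ratio of MG over neurons was 3.08 and 3.18 (Ptbp1-Ctrl and Ptbp1-KO) as a mean over cells, 2.82 and 3.0 with cells thinned to 1000 UMIs, and 2.42 and 2.53 against the unweighted mean of 4 neuronal types. The reversed ratios between genotypes were Abca1 in cones, 0.23 with thinned cells, and Abca8a in AC, 0.054 without AC cluster 14, a setting added after seeing the data. Of the other single ratios between genotypes, 161 stayed within their counting interval and 13 moved out of it. In MG, thinning gave 0.38 for Lrp1, -0.51 for Hmgcs1 and 0.30 for Srebf2. TMM scaling moved the median over all genes from 0.018 to -0.089 in rods and from -0.19 to -0.066 for MG over neurons in Ptbp1-KO. RGC and HC, under 130 cells per library, allow no ranking.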

Other observations

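The fatty acid genes lay on both sides in MG against neurons, as all features did. In that list, the interval of MG over neurons lay above 0 for 8 genes and below 0 for 7 in Ptbp1-Ctrl (median 0.093). In Ptbp1-KO it lay above 0 for 7 and below 0 for 8 (median -0.095). Over all features it lay above 0 for 3178 and below 0 for 4286 of 8892 in Ptbp1-Ctrl. In Ptbp1-KO these counts were 3144 and 4462 of 9061. Elovl4, Acaca and Acly, picked out after their values were seen, were lower in MG (-1.81, -0.66 and -0.83 in Ptbp1-Ctrl). Of this list, 5 of the 16 genes past 20 CPM were at least 4-fold higher in MG in each library, where 11.1% and 10.9% of all features were, led by Acsl3, which activates long-chain fatty acids, at 2071 and 2431 CPM in MG and a log2 ratio over neurons of 4.23 and 4.41. Tecr, the third of that list by level, was 221 and 219 CPM in MG with log2 ratios over neurons of 0.17 and 0.067. In the sterol storage list, 4 of 6 genes in Ptbp1-Ctrl and 2 of 5 in Ptbp1-KO were at least 4-fold higher in MG, against the same background. Npc2, a lysosomal cholesterol carrier, was 109 and 99.1 CPM in MG with log2 ratios of 2.05 and 1.78, whereas its partner Npc1 was 63.5 and 59.8 CPM with ratios of -0.068 and 0.072, and Soat1, which esterifies cholesterol, was 44.7 and 43.3 CPM with ratios of 1.07 and 0.79.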
